A study of Mus musculus with 6 samples.

Results

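The genes described here build the immunoproteasome and load its products onto MHC class I molecules. They were the 9 genes Psmb8, Psmb9, Psmb10, Psme1, Psme2, Tap1, Tap2, Tapbp and Erap1, taken by gene symbol from a deposited table of RPKM values (read counts scaled to transcript length and to the mapped reads of the library), which held 12623 genes with a symbol. All 9 were listed, on 12 transcript rows. The libraries came from lung endothelial cells of C57BL/6N mice, with 3 libraries of infants aged 8 to 10 days and 3 of young adults aged 8 to 12 weeks, all untreated. Collagenase-digested lungs were sorted for CD31+CD34+ cells that lacked PTPRC, LYVE1, LY76, PDPN and propidium iodide staining, a gate meant to leave out leukocytes, lymphatic cells, red cells and dead cells. RNA was amplified before sequencing, and the number of animals behind each library is not given in the sources used here.

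The proteasome cuts cytosolic proteins into peptides with catalytic subunits that sit inside its 20S core. Interferon and other inflammatory signals induce alternative catalytic subunits, which take the place of the constitutive ones in newly built particles and favour cuts that leave peptides fit for MHC class I. The PA28 activator opens the core, the TAP transporter carries peptides into the endoplasmic reticulum, tapasin holds the empty class I molecule to TAP, and ERAP1 trims the peptide ends. Endothelial cells carry class I molecules on their surface and face circulating T cells.

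Several features of the 6 libraries bear on every value that follows. The summed RPKM of 10 endothelial markers ran from 2947 to 4345 in the infant libraries and from 4764 to 5120 in the young adult libraries. This sum was thus higher in each young adult library than in any infant library. Of the 10 endothelial markers 1, the receptor gene Tek, was called higher. The lists of other cell types went mostly the other way, with 10 of 12 fibroblast and mural markers, 7 of 7 erythroid markers, 5 of 15 leukocyte markers and 4 of 9 epithelial markers called lower in young adults, and 1 epithelial marker, Hopx, called higher. Globin genes took 3.41% to 23.5% of the RPKM over genes in infant libraries and 0.307% to 0.487% in young adult libraries. The study's methods name female mice, yet the Y-linked gene Ddx3y had 20.6, 16.5 and 21.9 RPKM in the infant libraries and 0 in each young adult library, and the X-inactivation transcript Xist had 8.2, 8.7 and 7.6 RPKM against 15.6, 12.5 and 13.4 RPKM. Sex and age therefore cannot be told apart in any comparison here. In RNA from a bulk sort, fewer cells of a type and less RNA per cell cannot be told apart either. The depth of each library cannot be read from the table, which gives RPKM to 1 decimal and no read counts.

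All 9 genes had higher RPKM in every young adult library than in any infant library, and 8 of them, all but Erap1, were called higher. A call means an adjusted p under 0.05 (limma on log2(RPKM + 1), Benjamini-Hochberg over all 12458 genes tested) and a log2 difference above 0.81 on the same scale, which is called the fold limit here. By that rule 3.33% of all genes were called higher and 8.1% were called lower. By adjusted p alone 9 of 9 genes were higher, against 9.26% of all genes, and groups without overlap on the higher side were found in 16.4% of all genes. The median log2 fold change was 1.05 over the 9 genes and -0.07 over all genes. By size, the inducible catalytic subunits and Tap1 had the highest fold changes, Psme1, Psme2, Tap2 and Tapbp lay near 2-fold, and Erap1 had the lowest. Among the 12458 genes ordered from the highest log2 fold change downwards, Psmb9 was at place 53, Psmb8 at 73, Tap1 at 100, Psmb10 at 124 and Erap1 at 692.

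**Figure D1:**
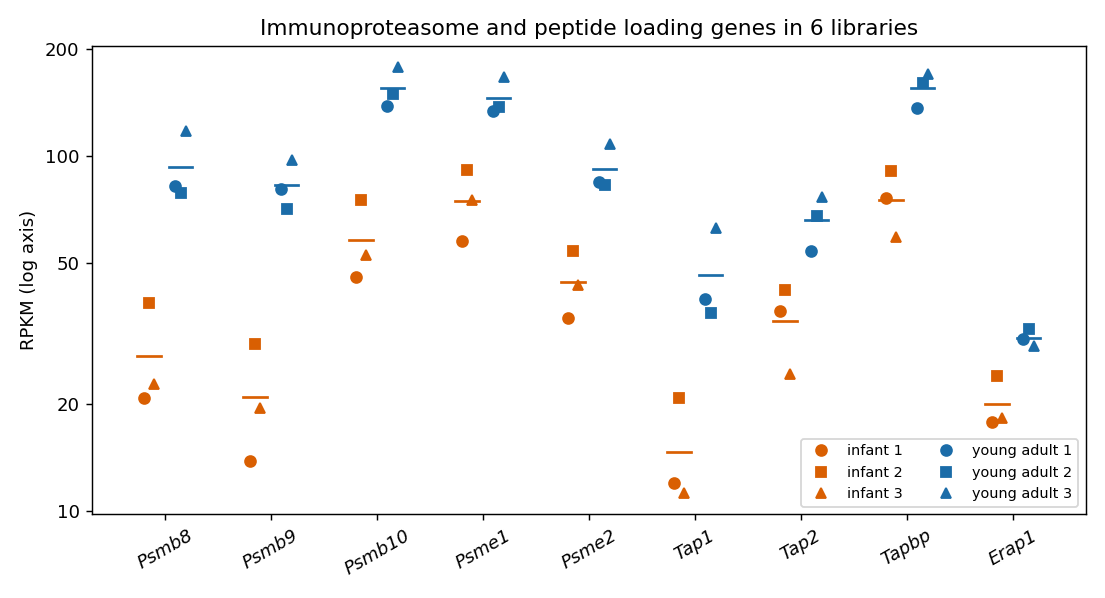
RPKM of the 9 genes in each infant and young adult library, on a log axis, with 1 point per library and a line at each group's mean. For all 9 genes the 3 young adult points lie above the 3 infant points, and the step is widest for Psmb9 (3.95-fold) and narrowest for Erap1 (1.53-fold).

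Psmb8, Psmb9 and Psmb10 encode the inducible catalytic subunits LMP7, LMP2 and MECL-1. Psmb9 had 13.9, 29.6 and 19.5 RPKM in infant replicates 1, 2 and 3, and 80.5, 71.0 and 97.4 RPKM in young adult replicates 1, 2 and 3. Every young adult value was more than 2 times the highest infant value. The mean went from 21.0 ± 7.96 to 83.0 ± 13.4 RPKM (SD, n = 3 each), 3.95-fold, with a log2 fold change of 1.98 ± 0.25 (SE) and an adjusted p of 0.00276 by limma.

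Psmb8 had 20.8, 38.5 and 22.8 RPKM in the infant libraries and 82.2, 78.6 and 117.7 RPKM in the young adult libraries. Its means were 27.4 ± 9.69 and 92.8 ± 21.6 RPKM, 3.39-fold apart, and the log2 fold change was 1.754 ± 0.25 (limma adjusted p = 0.00406). Infant replicate 2 stood well above the other infant libraries and still below every young adult library. Psmb10 had 45.6, 75.2 and 52.6 RPKM in the infant libraries and 138.0, 149.5 and 177.5 RPKM in the young adult libraries. It was the most abundant of these 3 subunits at both ages, with means of 57.8 ± 15.5 and 155.0 ± 20.3 RPKM, and it rose 2.68-fold (log2 fold change 1.43 ± 0.19, limma adjusted p = 0.0034). Because Psmb9 rose more than Psmb10, the ratio of Psmb10 to Psmb9 RPKM was 3.28, 2.54 and 2.70 in infants and 1.71, 2.11 and 1.82 in young adults. This ratio was picked after its values were seen and was not tested.

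Each inducible subunit takes the place of 1 constitutive subunit, Psmb8 of Psmb5, Psmb9 of Psmb6 and Psmb10 of Psmb7. No constitutive subunit was called in either direction. Psmb5, the chymotrypsin-like subunit, had 30.6, 28.0 and 31.1 RPKM in infants and 31.6, 35.4 and 41.3 RPKM in young adults (log2 fold change 0.26 ± 0.12, limma adjusted p = 0.145). Psmb6, the caspase-like subunit, had 79.3, 88.3 and 101.0 RPKM and then 110.6, 124.0 and 137.8 RPKM. Its log2 fold change of 0.47 ± 0.14 had a limma adjusted p of 0.0405 and lay under the fold limit. Psmb7, the trypsin-like subunit, had 52.1, 60.2 and 58.5 RPKM and then 62.7, 67.4 and 68.4 RPKM (log2 fold change 0.22 ± 0.10, limma adjusted p = 0.155). All 3 constitutive genes were thus higher in each young adult library than in any infant library, by much smaller amounts than their inducible counterparts.

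The ratio within each pair does not depend on how a library is scaled. It can depend on the mix of cells in a library, which was not tested here. This ratio was higher in every young adult library for all 3 pairs. Among infants, replicate 2, whose marker sums are given below, had the highest ratio of each pair. The ratio of Psmb8 to Psmb5 RPKM was 0.680, 1.38 and 0.733 in infants and 2.60, 2.22 and 2.85 in young adults, a mean difference of 1.53 on the log2 scale or 2.89-fold. In 2 of 3 infant libraries Psmb5 was the more abundant transcript, and in all young adult libraries it was Psmb8. The ratio of Psmb9 to Psmb6 RPKM was 0.175, 0.335 and 0.193 in infants and 0.728, 0.573 and 0.707 in young adults, a mean log2 difference of 1.57 or 2.96-fold, so Psmb6 stayed above Psmb9 in all 6 libraries. The ratio of Psmb10 to Psmb7 RPKM was 0.875, 1.25 and 0.899 in infants and 2.20, 2.22 and 2.60 in young adults, a mean log2 difference of 1.23 or 2.34-fold. An exact two-sided permutation test gave p = 0.1 for each of the 3 pairs (Benjamini-Hochberg adjusted 0.1), the smallest p that 3 libraries against 3 can give. Summed over the 3 pairs, inducible subunits made up 33.1%, 44.8% and 33.2% of catalytic subunit RPKM in infants and 59.5%, 56.9% and 61.3% in young adults (37.1% ± 6.71 and 59.2% ± 2.24, SD). The catalytic transcripts were therefore mostly constitutive in each infant library and mostly inducible in each young adult library. Transcript shares do not measure the make-up of assembled proteasomes.

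**Figure D2:**
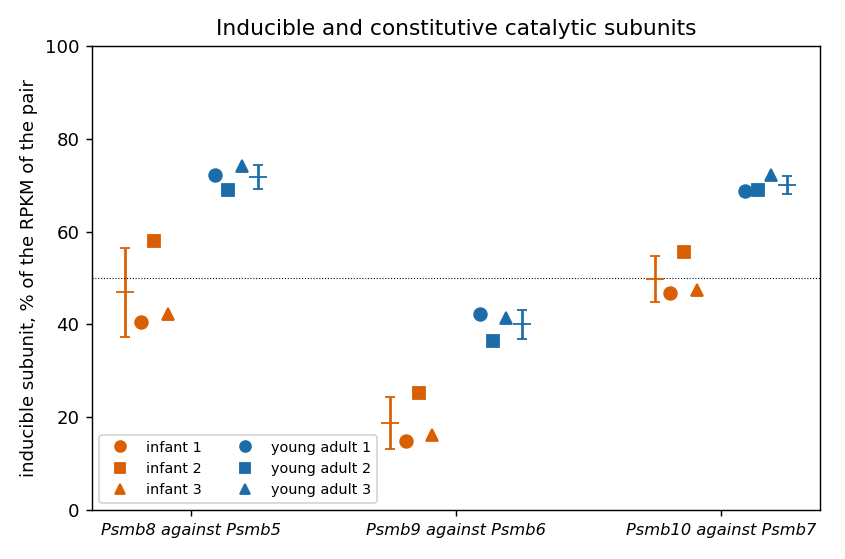
Share of the inducible subunit in the summed RPKM of each catalytic pair, in percent, with 1 point per library, the mean ± SD of each group beside it and a dotted line where both subunits are equal. Psmb8 makes up 40.5% to 57.9% of its pair in infants and 68.9% to 74.0% in young adults, whereas Psmb9 stays under the line in all 6 libraries (14.9% to 25.1% and 36.4% to 42.1%).

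Psme1 and Psme2 encode the alpha and beta subunits of PA28, the cap that docks on the proteasome core. Psme1 had 57.6, 91.0 and 75.2 RPKM in infants and 133.4, 136.9 and 167.0 RPKM in young adults, with means of 74.6 ± 16.7 and 145.8 ± 18.5 RPKM (1.95-fold, log2 fold change 0.97 ± 0.18, limma adjusted p = 0.0102). Psme2 had 35.0, 54.1 and 43.2 RPKM in infants and 84.5, 82.6 and 108.0 RPKM in young adults. Its means were 44.1 ± 9.58 and 91.7 ± 14.1 RPKM, 2.08-fold apart (log2 fold change 1.05 ± 0.18, limma adjusted p = 0.00746). The subunits are joined in 1 ring, and their ratio moved little: Psme1 over Psme2 RPKM was 1.65, 1.68 and 1.74 in infants and 1.58, 1.66 and 1.55 in young adults, with overlap between the groups. Psme3, which encodes the nuclear PA28 gamma cap, had 5.5, 4.7 and 7.0 RPKM in infants and 4.7, 4.2 and 4.9 RPKM in young adults (log2 fold change -0.25, limma adjusted p = 0.211). Without infant replicate 1 the log2 fold change of Psme1 was 0.80 (limma adjusted p = 0.0278), just under the fold limit, so its call rests on that library. The mouse genome also holds a retrocopy of Psme2, not analysed here, and reads from it could be counted with Psme2.

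Tap1 and Tap2 encode the subunits of the peptide transporter, which works as a heterodimer. Tap1 had 12, 20.8 and 11.3 RPKM in infants and 39.7, 36.2 and 62.7 RPKM in young adults, with means of 14.7 ± 5.29 and 46.2 ± 14.4 RPKM (3.14-fold, log2 fold change 1.60 ± 0.27, limma adjusted p = 0.00719). Tap2 had 36.7, 41.9 and 24.3 RPKM in infants and 54.0, 67.7 and 76.5 RPKM in young adults. Its means were 34.3 ± 9.04 and 66.1 ± 11.3 RPKM, 1.93-fold apart (log2 fold change 0.95 ± 0.21, limma adjusted p = 0.0185). Tap1 was the less abundant of the pair in all 6 libraries, and its RPKM was 0.327, 0.496 and 0.465 of that of Tap2 in infants and 0.735, 0.535 and 0.820 in young adults. The groups did not overlap in this ratio, which was chosen after the values were seen and was not tested. Tap2 was the least stable of the called genes. Its log2 fold change was 0.72 without infant replicate 3 (limma adjusted p = 0.04), under the fold limit. Leaving out young adult replicate 2 gave it a limma adjusted p of 0.0765, and leaving out replicate 3 of the same age gave 0.0605.

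Tapbp encodes tapasin, the chaperone that bridges class I molecules to TAP, and it had the highest mean RPKM of the 9 genes at both ages. It had 76.0, 90.7 and 59.1 RPKM in infants and 136.4, 160.3 and 169.9 RPKM in young adults, with means of 75.3 ± 15.8 and 155.5 ± 17.3 RPKM (2.07-fold, log2 fold change 1.05 ± 0.17, limma adjusted p = 0.00664). Erap1 encodes the aminopeptidase of the endoplasmic reticulum that cuts peptides to the length class I molecules hold. It had 17.9, 24.1 and 18.3 RPKM in infants and 30.6, 32.6 and 29.1 RPKM in young adults, with means of 20.1 ± 3.47 and 30.8 ± 1.76 RPKM. Its 1.53-fold difference (log2 fold change 0.60 ± 0.13, limma adjusted p = 0.016) lay under the fold limit, and its adjusted p reached 0.0711 when 1 library was left out.

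Second transcript rows were listed for Psme2, Tap1 and Tapbp, and in each case they kept an almost constant ratio to the row used, 1.11 to 1.12 for Psme2, 1.02 to 1.03 for Tap1 and 1.01 for Tapbp across the 6 libraries, so they add no separate isoform measurement. The order of the levels differed between the ages. In infants the means fell from Tapbp (75.3 RPKM) through Psme1, Psmb10, Psme2, Tap2, Psmb8, Psmb9 and Erap1 to Tap1 (14.7 RPKM), and every pair of neighbours in that order overlapped across libraries. In young adults Tapbp (155.5 RPKM), Psmb10 (155.0 RPKM) and Psme1 (145.8 RPKM) formed a top set whose libraries overlapped, and Psme1 was separated from Psmb8 (92.8 RPKM), the next gene, without overlap. Psmb8, Psme2, Psmb9, Tap2 and Tap1 followed, each overlapping its neighbour, and Erap1 (30.8 RPKM) lay below Tap1 (46.2 RPKM) without overlap. Within infants, replicate 2 was the highest library for 9 of 9 genes. Among infants this library had the highest endothelial marker sum (4345 RPKM) and the lowest globin share (3.41%). Its fibroblast and mural marker sum was the lowest (291.2 RPKM, against 1297.1 and 892.7 RPKM in replicates 1 and 3). Its epithelial and leukocyte marker sums were the highest of the infants (11129 and 540.0 RPKM). Most of the epithelial sum came from Scgb1a1 (6286 RPKM) and Sftpc (4683 RPKM), and most of the leukocyte sum from Lyz2 (467.1 RPKM). Whether the mix of cells accounts for the values of this library was not tested. Within young adults, replicate 3 was the highest for 8 of 9 genes, all but Erap1. It also had the highest epithelial, leukocyte and endothelial marker sums of the young adults (8160, 571.7 and 5120 RPKM). Whether this accounts for its values was not tested. Without infant replicate 2 the median log2 fold change was 1.21 over the 9 genes and -0.07 over all genes. In that fit 8 of the 9 genes were called higher, and the share of all genes called in it is not given here.

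The summed RPKM of the endothelial markers moved with the result, so the values were also set against that sum. Abundant genes weigh most in it, and Egfl7 alone had means of 1236 RPKM in infants and 1893 RPKM in young adults. The log2 fold changes of the 10 markers ran from -0.02 for Erg to 1.25 for Tek, with a median of 0.30. Per RPKM of summed endothelial markers, the young adult mean was 2.82-fold the infant mean for Psmb9, 2.43-fold for Psmb8, 2.25-fold for Tap1 and 1.90-fold for Psmb10. The same quotient was 1.46-fold for Psme2, 1.45-fold for Tapbp, 1.37-fold for Psme1, 1.36-fold for Tap2 and 1.08-fold for Erap1. On this scale the groups overlapped for Tap2 and Erap1 and did not overlap for the other 7 of the 9 genes. The share of all genes without overlap on this scale is not given here. With every library rescaled to the endothelial markers before the limma fit, an alternative added after the data were seen, the median of all genes was -0.51 and 1.38% of genes were called higher. In that fit 4 of 9 genes were called higher: Psmb9 at a log2 fold change of 1.48, Psmb8 at 1.25, Tap1 at 1.10 and Psmb10 at 0.92. Psme1 had a log2 fold change of 0.46 (limma adjusted p = 0.054), Psme2 of 0.54 (0.0299), Tapbp of 0.54 (0.0225), Tap2 of 0.44 (0.0659) and Erap1 of 0.10 (0.597). The small differences of the constitutive subunits changed sign, to -0.25 for Psmb5, -0.049 for Psmb6 and -0.30 for Psmb7. Leukocytes express these 9 genes at high levels, and the leukocyte list was lower by sign in young adults for 14 of 15 genes, with 0 called higher by limma and 0 higher at an unadjusted p under 0.05. Its summed RPKM was 339.1 to 540.0 in infants and 142.8 to 571.7 in young adults, mostly from Lyz2, and the common leukocyte antigen gene Ptprc had 4.2, 3.0 and 7.0 RPKM in infants and 0.2, 1.0 and 1.8 RPKM in young adults. The sum was highest in infant replicate 2 (540.0) and young adult replicate 3 (571.7), which were also highest at their age for most of the 9 genes. In those libraries Lyz2 alone had 467.1 and 515.5 RPKM. Most of the other leukocyte markers were highest in infant replicate 3 among infants and in young adult replicate 3 among young adults. Ptprc was highest in young adult replicate 3 but lowest of the infants in replicate 2. A contribution of leukocyte RNA to the 9 genes was not tested.

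**Figure D3:**
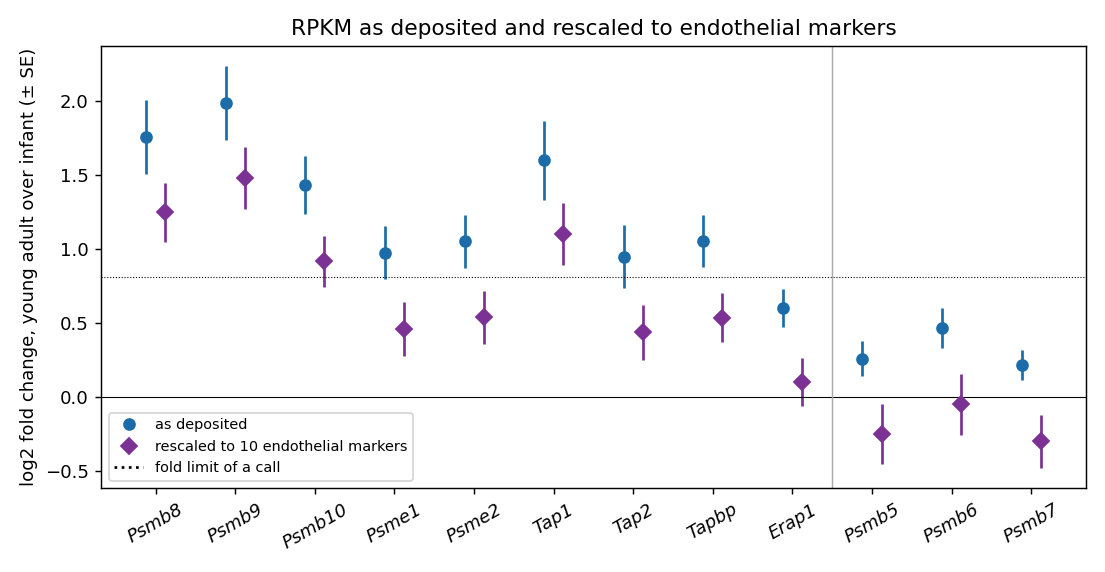
Log2 fold change of the 9 genes and, right of the grey line, the 3 constitutive catalytic subunits, young adult over infant, from RPKM as deposited (circles) and after rescaling each library to 10 endothelial markers (diamonds), with standard errors and a dotted line at the fold limit. After rescaling, Psmb8, Psmb9, Psmb10 and Tap1 remain above the line, whereas Erap1 sits at 0.10 and the constitutive subunits at or below 0.

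The rest of the pathway was read from lists of related genes. Counts at an unadjusted p under 0.05, here and for the other lists, stand without the share over all genes, which is not given here. Among the other 11 subunits of the 20S core, limma called 0 in either direction, with 6 higher at an unadjusted p under 0.05 and a median log2 fold change of 0.29, from Psma4 at -0.0098 to Psma7 at 0.48 (adjusted p = 0.0423). The 19S cap binds ubiquitin-tagged proteins. Among 21 genes of its subunits and assembly chaperones limma again called 0, with 3 higher at an unadjusted p under 0.05. The median of this list was 0.10, from Psmd8 at -0.20 to Psmc2 at 0.42. Of 8 other activators and assembly factors limma called 0, with 3 higher and 1 lower at an unadjusted p under 0.05. The assembly chaperone gene Psmg4 came closest, with 3.8, 5.6 and 4.6 RPKM in infants and 7.2, 10.0 and 8.7 RPKM in young adults (log2 fold change 0.77, limma adjusted p = 0.0131), just under the fold limit. It was called higher under 7 of the 21 alternatives, namely pseudocount 0.1, quantile normalization, median centring, array weights, adjusted p alone, infant replicate 2 left out and young adult replicate 1 left out, at log2 fold changes of 0.77 to 0.89. Pomp, a chaperone of proteasome assembly that favours the inducible subunits, had 124.6, 149.6 and 148.9 RPKM in infants and 177.2, 164.3 and 180.8 RPKM in young adults (log2 fold change 0.31, limma adjusted p = 0.104). The increase of the inducible catalytic subunits was thus not matched in size by any of the other core or cap subunits listed. Of 8 other peptidases limma called 0, with 2 lower at an unadjusted p under 0.05, and the cytosolic aminopeptidase gene Npepps had the lowest log2 fold change, -0.42 (adjusted p = 0.0213), and Lap3 the highest, 0.11.

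Among 9 partners of class I loading, 4 rose. They were the class I light chain gene B2m (log2 fold change 1.98 ± 0.35, limma adjusted p = 0.00847), the heavy chain genes H2-K1 (2.57 ± 0.34, 0.00337) and H2-D1 (2.08 ± 0.33, 0.00612), and Tapbpl, which encodes the TAP-independent peptide editor TAPBPR (1.26 ± 0.19, 0.00534). The class I heavy chain genes resemble each other closely and reads may be split among them, so their single values are uncertain. The other 5 genes of the list, general chaperones and folding factors of the endoplasmic reticulum, were not called: Calr (calreticulin) had a log2 fold change of 0.10, Canx (calnexin) -0.07, Pdia3 (ERp57) -0.13, Uggt1 0.02 and Hspa5 -0.26. After rescaling to endothelial markers 3 of the 9 partners were called, without Tapbpl (log2 fold change 0.76), and testing against the fold limit itself left 1, H2-K1.

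**Figure D4:**
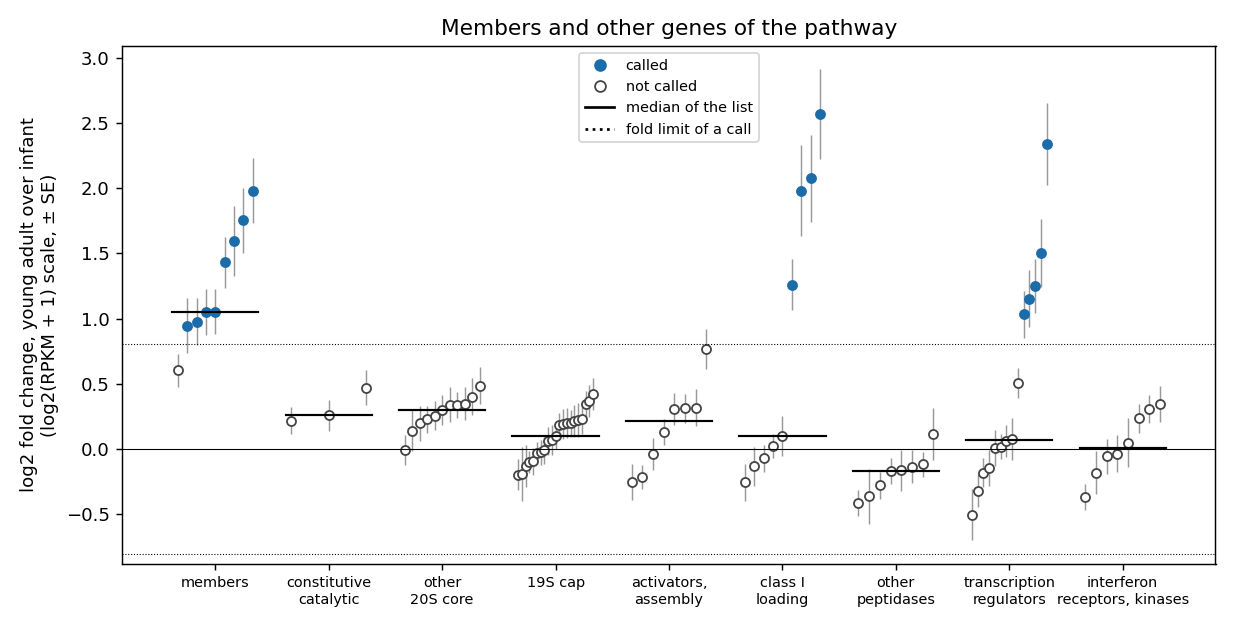
Log2 fold change, young adult over infant, of the 9 genes and of 8 lists of related genes, with 1 point per gene, standard errors, filled points for called genes, a bar at each list's median and dotted lines at the fold limit in both directions. The points of the 9 genes run from 0.60 to 1.98, and in the fit as reported called genes appear in 2 of the other lists, loading partners (4 of 9) and transcription regulators (5 of 14).

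Of 14 transcription regulators of these genes, 5 were called higher and 0 lower, with 6 higher and 2 lower at an unadjusted p under 0.05. Nlrc5, the transactivator of class I genes, had 0.6, 2.5 and 0.8 RPKM in infants and 9.1, 7.7 and 13.9 RPKM in young adults (log2 fold change on the RPKM + 1 scale 2.34 ± 0.32, limma adjusted p = 0.00339). Irf1, an interferon-induced factor, had 85.0, 113.6 and 80.5 RPKM and then 204.7, 153.9 and 214.4 RPKM (1.03 ± 0.18, limma adjusted p = 0.00864). As with the 9 genes, infant replicate 2 was the highest infant library for Nlrc5 and Irf1. Stat2 (1.25, limma adjusted p = 0.00683) and Irf9 (1.15, 0.0107), components of the type I interferon transcription complex, also rose. After rescaling to endothelial markers 2 of the 14 regulators were called, Nlrc5 among them, with log2 fold changes of 0.51 for Irf1, 0.65 for Irf9 and 0.75 for Stat2 under the fold limit. Testing against the fold limit itself left 1, Nlrc5, and without young adult replicate 1 Irf9 had a limma adjusted p of 0.0506. Of 8 genes of interferon receptors, their kinases and a signalling inhibitor limma called 0, with 2 higher and 1 lower at an unadjusted p under 0.05. The log2 fold changes of this list ran from -0.37 for Ifnar1 (limma adjusted p = 0.0334) to 0.34 for Ifnar2.

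By position, 5 of the 9 genes lie in the MHC region of chromosome 17 (mm10 coordinates of the genes in RefSeq). Psmb9 (chr17:34182030-34187330), Tap1 (chr17:34187556-34197225), Psmb8 (chr17:34198195-34201454) and Tap2 (chr17:34204479-34216321) span 34.3 kb, and Tapbp (chr17:33919478-33929290) lies 252.7 kb from Psmb9. Psmb9 and Tap1 start back to back, with 226 bases between them, and both rose more than 3-fold. Psme1 (chr14:55578494-55581527) and Psme2 (chr14:55587440-55591101) are 5.91 kb apart. Psmb10 (chr8:105935728-105938392) and Erap1 (chr13:74639573-74693205) have no other gene of the set on their chromosomes. Of 28 other genes tested within 50 kb of a member of the set, 5 were called higher and 0 lower. Over all genes 3.33% were called higher and 8.1% lower. The median log2 fold change of the 28 neighbours was 0.13. By locus, 3 of 5 neighbours were called around Psmb9, Tap1, Psmb8 and Tap2, 1 of 9 around Tapbp and 1 of 7 around Psme1 and Psme2. Beside Psmb9 and Tap2 the called genes were the class II genes H2-DMa (1.81), H2-DMb1 (2.03) and H2-Ab1 (2.32). H2-DMb2 (0.60) and H2-Ob (-0.21) were not called there. Beside Tapbp the class I gene H2-K2 (1.24) was called, and beside Psme2 the regulator Irf9. None of the 6 neighbours of Psmb10 was called, and neither was Cast (0.10), the 1 tested neighbour of Erap1. Emc9 overlaps the end of Psme1 and Cast overlaps the end of Erap1, and with a kit that does not mark strand, reads in the overlaps cannot be assigned to 1 gene.

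**Figure D5:**
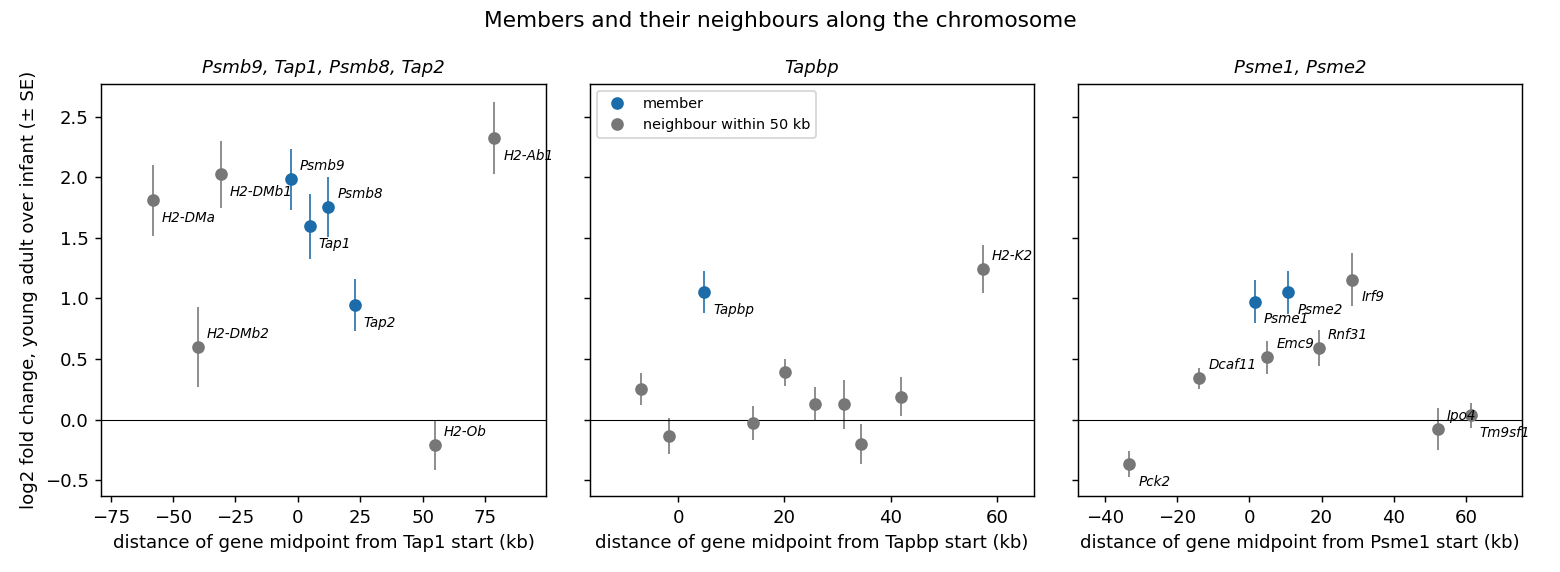
Log2 fold change with standard error against distance along the chromosome, in kb from the start of Tap1, Tapbp or Psme1, for members of the set (blue) and tested genes within 50 kb of them (grey). Around Tap1 the class II genes H2-DMa, H2-DMb1 and H2-Ab1 lie as high as Psmb9 and Psmb8 while H2-Ob lies at -0.21, and around Tapbp most neighbours lie near 0.

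Promoter windows from 250 bases before to 50 bases after the start were read from RefSeq for build GRCm38.p6, the same assembly as mm10, and gave 9 windows for 8 of the 9 genes, with a pair for Psme2 and none for Tap2. They were searched on both strands for the interferon-stimulated response element core GAAANNGAA, the gamma-activated site TTCNNNGAA and the NF-kB core GGGANTTTC. The response element core was found in the windows of Psme1 and Erap1 and the gamma-activated site in that of Psmb8, so 3 of 8 genes and 3 of 9 windows held any of the motifs. Of all RefSeq promoter windows of this length, 16.7% held any of the motifs, 8.56% the response element core, 8.3% the gamma-activated site and 1.11% the NF-kB core. By gene, 18.9% of those with such a window held any of the motifs. The windows of 4 genes show these matches in capitals, written 5′ to 3′ on the plus strand, and the opening between Tap1 and Psmb9, whose windows share 275 bases and held none of the motifs. They are Tap1 (chr17:34187306-34187605), Psmb8 (chr17:34197945-34198244), Psme1 (chr14:55578244-55578543) and Erap1 (chr13:74639603-74639902).
Tap1: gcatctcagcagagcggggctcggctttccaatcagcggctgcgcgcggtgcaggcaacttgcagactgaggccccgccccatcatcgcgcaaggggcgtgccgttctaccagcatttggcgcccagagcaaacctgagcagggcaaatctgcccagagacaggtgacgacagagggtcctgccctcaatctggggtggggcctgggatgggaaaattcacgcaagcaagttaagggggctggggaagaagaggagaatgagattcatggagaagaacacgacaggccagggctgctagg
Psmb8: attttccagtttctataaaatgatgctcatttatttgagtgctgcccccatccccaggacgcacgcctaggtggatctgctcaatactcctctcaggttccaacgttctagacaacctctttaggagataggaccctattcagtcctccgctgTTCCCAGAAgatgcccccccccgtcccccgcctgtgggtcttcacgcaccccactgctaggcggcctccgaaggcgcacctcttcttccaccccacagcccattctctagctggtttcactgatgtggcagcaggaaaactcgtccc
Psme1: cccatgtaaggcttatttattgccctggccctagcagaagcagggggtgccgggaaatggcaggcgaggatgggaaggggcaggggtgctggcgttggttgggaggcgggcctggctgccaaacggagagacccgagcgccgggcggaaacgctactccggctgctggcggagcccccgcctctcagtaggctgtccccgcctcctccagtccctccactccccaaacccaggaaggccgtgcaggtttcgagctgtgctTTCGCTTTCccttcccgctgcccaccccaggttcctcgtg
Erap1: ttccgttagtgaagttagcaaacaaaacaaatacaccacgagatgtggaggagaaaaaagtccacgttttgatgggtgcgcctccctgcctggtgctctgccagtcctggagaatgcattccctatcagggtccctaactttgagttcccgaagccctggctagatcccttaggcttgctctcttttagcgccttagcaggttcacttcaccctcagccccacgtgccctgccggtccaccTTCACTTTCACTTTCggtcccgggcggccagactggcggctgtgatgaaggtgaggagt
In Psmb8 the gamma-activated site begins 97 bases before the start. In Psme1 the reverse complement of the response element core begins 10 bases after the start, and in Erap1 a pair of overlapping reverse complement cores begins 9 and 3 bases before the RefSeq start of that window. That start lies 280 bases downstream of the Erap1 gene start in the RefSeq gene coordinates given by position above. The windows of Tap1, Psmb8 and Psme1 use the gene starts given there. A match is a string of letters and not a measured binding site.

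Genes outside the set were ranked by how closely their 6 library values followed the mean standardized profile of the 9 genes, among 6975 genes whose mean RPKM reached 5. The closest 5 were Sptlc1, H2-D1, H2-K1, Wdr74 and Tmem208, with Pearson correlations across the 6 libraries of 0.998 to 0.999. Of these H2-D1 and H2-K1 were called higher, whereas Sptlc1 (log2 fold change 0.46), Wdr74 (0.54) and Tmem208 (0.67) were not. Within the set, the correlation with the mean profile was highest for Psmb8 and Psmb10 (0.997 each) and lowest for Tap2 (0.936). With 6 libraries in 2 age groups, such values mostly follow the difference between the groups and are given as a description.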

How the data were processed

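RNA from sorted lung endothelial cells was profiled in 3 infant and 3 young adult libraries. The authors aligned reads with STAR to mm10 and deposited RPKM values per RefSeq transcript, rounded to 1 decimal. Tool versions are not given in the sources used here. Read counts could not be recovered from the rounded RPKM, so no count test was used.

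Of 17241 rows, the row with the highest mean RPKM stood for each gene. Genes with at least 1 RPKM in at least 1 library were tested on log2(RPKM + 1) with limma 3.58.1 in R 4.3.3 (trended empirical Bayes, age group only), and fold changes on this scale understate changes of low genes. Ratios within libraries were compared by exact two-sided permutation tests. P-values measure only the spread between these libraries, which may be partly technical, since the labels do not tie them to animals. The fitting procedure was tested on simulated data. Groups came from the sample labels, and no source says that a replicate number marks shared animals. The genes named are the 9 members, their constitutive counterparts, called genes of each list or, with none called, its extremes, the 5 genes closest in profile and genes within 50 kb. Pomp, the uncalled loading chaperones, Lyz2 and Ptprc were named after their values were seen. The values of 1 listed gene are not reported here. The members and all lists were chosen with earlier results of these data known. Alternatives covered the pseudocount, filters, scalings, transcript rows, variance model, replicate block, call rule and leaving out each library.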

Additional observations from a re-analysis of the deposited data

How the results depend on the processing

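Over 21 alternatives each, the 189 fold changes of the 9 genes held 0 reversals, 16 lost calls and 1 gained call, that of Erap1 under adjusted p alone. The alternatives of filter, trend, robust variance, replicate block and call rule left each fold change as reported, so no reversal could occur under them. The number of these genes called higher was 8 as reported. It was 0 when limma's treat tested against the fold limit itself, where 4 had an unadjusted p under 0.05, the lowest adjusted p was 0.0543 for Psmb9 and 176 genes in all were called. It was 4 after rescaling to endothelial markers, chosen after seeing the data, where the log2 fold changes of Psmb5, Psmb6 and Psmb7 turned to -0.25, -0.049 and -0.30. It was 7 to 8 without any 1 library, Psme1 being lost without infant replicate 1 and Tap2 without infant replicate 3, young adult replicate 2 or young adult replicate 3. With the replicate number as a block it was 8. The share of all genes called is not given here for the fits that left out a library or used the block. Same-numbered libraries did not deviate together (correlations of -0.12 to 0.01), so the numbers were not taken as pairs. Rescaling without globin genes gave a median log2 fold change of 0.95 over the 9 genes and -0.16 over all genes. The catalytic pair ratios kept their direction under every alternative run for them. Of these, the replicate block and the mean over transcript rows left the ratios unchanged. With 3 libraries a group their exact test cannot pass 0.05. RPKM without counts gives no interval for single values.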
